A study of Saccharomyces cerevisiae with 12 samples.

Results

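The antioxidant enzymes described here are 10 genes of budding yeast (Saccharomyces cerevisiae), chosen by name from the 6120 genes of the deposited table: CTT1, SOD1, SOD2, GPX1, GPX2, TSA1, TSA2, PRX1, TRX2 and CCP1. All 10 were found, and all 10 passed the filter on low values. They were chosen with earlier results of these data known. Their messenger RNA was followed from quiescence, a reversible resting state of starved cells, through the return to growth. All 12 libraries came from strain pJD47, whose genotype the labels do not give. The growth protocol is worded alike for all 12 samples, log phase included, and names synthetic complete plates with 2% glucose for the starting colonies, without a separate recipe for the liquid cultures. Quiescent cells had spent 7 days in water with 10 mM D3-acetate after such growth. Cells leaving quiescence were taken 30 min and 240 min after transfer to liquid medium, and log-phase cells were in logarithmic growth. Each of the 4 groups had n = 3 libraries, called biological replicates. The labels do not say whether the replicates were separate cultures throughout, so p-values measure the spread between these libraries, which may be technical.

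Aerobic cells make superoxide and hydrogen peroxide, above all in respiration. Superoxide dismutases turn superoxide into hydrogen peroxide and oxygen, and catalases, peroxiredoxins, glutathione peroxidase-like enzymes and cytochrome c peroxidase remove peroxides. Peroxiredoxins are recycled by thioredoxin, which thioredoxin reductase in turn reduces with NADPH. In yeast, the stress factors Msn2 and Msn4 act through the stress response element and the peroxide-responsive factor Yap1 acts through the Yap1 element, both in the promoters of defence genes.

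Values are normalised read counts, that is, reads scaled by a factor per library. They are relative to the other genes of a library, and in these bulk samples fewer cells of a type and less RNA per cell cannot be told apart. Reads per library numbered 1195233 to 5220494 for quiescent cells, 7943459 to 11866340 for 30 min cells, 11572190 to 12428294 for 240 min cells and 13480102 to 15100323 for log-phase cells. Quiescent replicate 1 was the shallowest, so that each of its reads stood for 6.97 units, against 1.46 and 1.70 for quiescent replicates 2 and 3 and 0.554 to 0.863 for later libraries. Changes are differences of log2(value + 1) with SE. A gene was called at a Benjamini-Hochberg adjusted p under 0.05 in limma, adjusted over the 5871 genes tested, and every adjusted p below is of that kind. The 5 comparisons share groups and are not independent of each other.

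Replicate 1 stood apart from replicates 2 and 3 at every stage. Its median absolute log2 difference from their mean, over all genes tested, was 0.39 for quiescent cells, 0.33 for 30 min cells, 0.39 for 240 min cells and 0.64 for log-phase cells. Replicates 2 and 3 differed from each other by a median of 0.13, 0.10, 0.07 and 0.21 at the same stages. The log-phase libraries also disagreed in markers of quiescent or starved cells (HSP12, HSP26, SPG1, SPG4, SNZ1 and TPS1, none of them at 0). In log-phase replicates 1, 2 and 3 HSP12 had 1297, 38800 and 22735 normalised counts, TPS1 had 6860, 13883 and 10363, and SNZ1 had 1005, 856 and 485. HSP26, SPG1 and SPG4 were also lowest in replicate 1, so that SNZ1 was the exception among the 6. The summed level of these 6 markers was 110050 to 127130 for quiescent cells, 40496 to 48916 for 30 min cells, 9427 to 12265 for 240 min cells, and 10164, 62214 and 38562 for log-phase replicates 1, 2 and 3. In this sum, most of it HSP12 in replicates 2 and 3, log-phase replicates 2 and 3 were above replicate 1 and all 240 min libraries, replicate 2 lying above the range of 30 min cells and replicate 3 just below it. The 6 growth markers (RPL3, RPS3, RPL25, CLN1, CLN2 and HTA1) summed to 22149 to 29472, 20631 to 29563, 78797 to 118080 and 89029 to 123500 at the 4 stages. Within log phase these markers ran both ways: CLN1 had 957, 264 and 265, CLN2 1385, 851 and 774, and RPL3 25363, 21536 and 11632 in replicates 1, 2 and 3, while RPS3, RPL25 and HTA1 were lowest in replicate 1. The part of either marker list in the results below was not tested, and each member's log-phase changes are given with and without replicate 1.

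**Figure D1:**
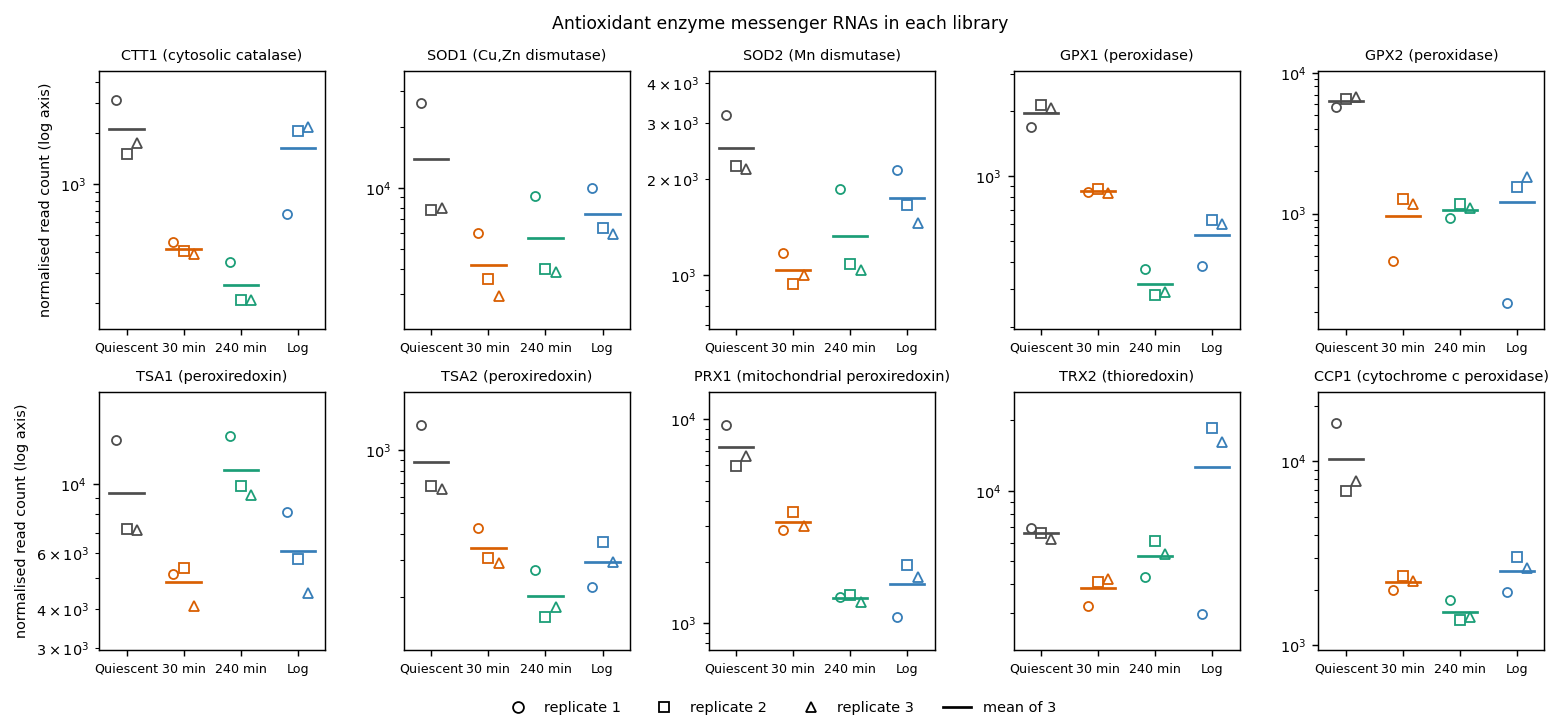
Normalised read count of each antioxidant enzyme (log axis) at the 4 stages, from quiescent cells on the left to log-phase cells on the right. Each symbol is a library, with its shape giving the replicate number, and the line is the mean of 3. CTT1 sits near 200 to 350 at 240 min in all 3 replicates but divides in log phase, with replicate 1 at 665 and the others above 2000.

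Sequences before the coding starts are shown because CTT1 is a textbook target of Msn2 and Msn4 and TRX2 of Yap1, and the members can be compared by these motifs. The 500 bases before the coding start were searched on both strands in the R64 reference (sacCer3), for all 10 members and 5969 promoters in all. The stress response element (AGGGG or CCCCT) stood in 10 of 10 members and in 34.0% of all promoters, and at least 2 copies stood in 4 members and 8.14% of all. The Yap1 element (TTACTAA or TTAGTAA) stood in 5 of 10 members (SOD1, SOD2, GPX2, TSA2 and TRX2) and in 11.8% of all. The CCAAT box (CCAAT or ATTGG), a binding sequence of the Hap complex, stood in 7 of 10 members and in 62.5% of all. The 38 matches in the members did not overlap one another. A match is a description of letters, not of binding. Below, 5′ to 3′ on the strand of the gene, capitals mark the Yap1 element in TRX2 (chrVII:913387-913459, minus strand), SOD1 (chrX:623142-623178, minus strand) and TSA2 (chrIV:1366114-1366150, minus strand). Capitals mark the stress response element in CTT1 (chrVII:654241-654520, plus strand), GPX1 (chrXI:390112-390201, minus strand), GPX2 (chrII:707347-707381, plus strand), PRX1 (chrII:101253-101287, minus strand) and CCP1 (chrXI:567327-567361, minus strand).
TRX2: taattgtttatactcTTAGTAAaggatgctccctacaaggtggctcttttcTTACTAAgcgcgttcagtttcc
SOD1: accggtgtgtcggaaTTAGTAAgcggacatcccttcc
TSA2: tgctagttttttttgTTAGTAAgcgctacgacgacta
CTT1: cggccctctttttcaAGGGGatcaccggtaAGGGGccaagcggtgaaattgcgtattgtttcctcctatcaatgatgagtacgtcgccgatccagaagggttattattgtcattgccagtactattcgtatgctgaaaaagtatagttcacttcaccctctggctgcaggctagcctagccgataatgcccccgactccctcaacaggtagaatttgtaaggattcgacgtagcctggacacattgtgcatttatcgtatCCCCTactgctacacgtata
GPX1: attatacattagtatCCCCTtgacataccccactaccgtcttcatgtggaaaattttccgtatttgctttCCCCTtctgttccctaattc
GPX2: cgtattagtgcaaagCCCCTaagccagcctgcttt
PRX1: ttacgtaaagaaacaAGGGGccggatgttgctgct
CCP1: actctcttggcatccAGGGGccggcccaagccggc

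**Figure D2:**
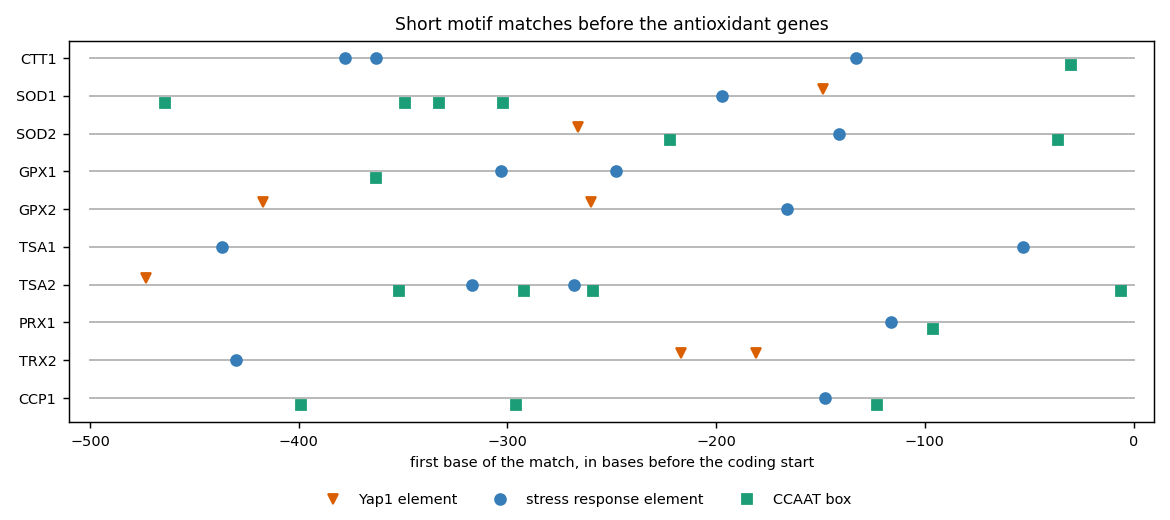
Positions of the Yap1 element, stress response element and CCAAT box in the 500 bases before each member's coding start (x axis, in bases before the start). A marker is the first base of a match. Every member has a stress response element, CTT1 has 3, and GPX2 and TRX2 have 2 Yap1 elements each.

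At 30 min the antioxidant enzymes were lower than in quiescent cells. Of the 10 members, 9 fell and TRX2 was not called, where 20.6% of all genes tested rose and 23.7% fell. Their median log2 change was -1.29, and that of all genes tested was -0.07. Because the members were chosen with earlier results of these data known, their counts here and below are descriptive and no independent test. At 240 min against 30 min the members parted: TSA1 rose, GPX1 and PRX1 fell and 7 were not called, where 13.3% of all genes rose and 14.0% fell. At 240 min against quiescent cells 7 fell and SOD1, TSA1 and TRX2 were not called, where 29.1% of all genes rose and 29.5% fell.

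In log phase against 240 min, CTT1 rose and 9 members were not called, where 3.27% of all genes rose and 4.09% fell. Without log-phase replicate 1, 5 of 10 members were called in that comparison, beside 35.4% of all genes in either direction. With the replicate number as a block, 3 were called, beside 18.2% of all genes. Between log phase and quiescent cells 5 members fell (GPX1, GPX2, TSA2, PRX1 and CCP1) and 5 were not called, where 28.8% of all genes rose and 27.8% fell. Without log-phase replicate 1, 8 members were called there, beside 62.3% of all genes. With the replicate block 8 were called as well, beside 66.8% of all genes. The share of all genes called grew along with the members in each of these alternatives. With replicates 2 and 3 of each group alone, all 10 members were called in both log-phase comparisons, beside 62.6% of all genes against 240 min and 77.9% against quiescent cells.

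Scaling each library to the same total moved the median of all genes by 0.25 (30 min against quiescent), -0.45 (240 min against 30 min), -0.27 (log phase against 240 min), -0.20 (240 min against quiescent) and -0.47 (log phase against quiescent) on the log2 scale. All-gene counts on that scaling were 1669 that rose and 976 that fell at 30 min against quiescent cells (1211 and 1394 as deposited) and 978 and 2381 in log phase against quiescent cells (1691 and 1635 as deposited). Under that scaling none of the members rose and 5 fell at 240 min against 30 min, where 5.59% of all genes rose and 33.0% fell. The members that fell were CTT1, GPX1, TSA2, PRX1 and CCP1, and TSA1 was at 0.72 with an adjusted p of 0.103. Under it CTT1 rose and TSA1 fell in log phase against 240 min, where 1.91% of all genes rose and 11.8% fell. Changes below are on the deposited scaling.

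**Figure D3:**
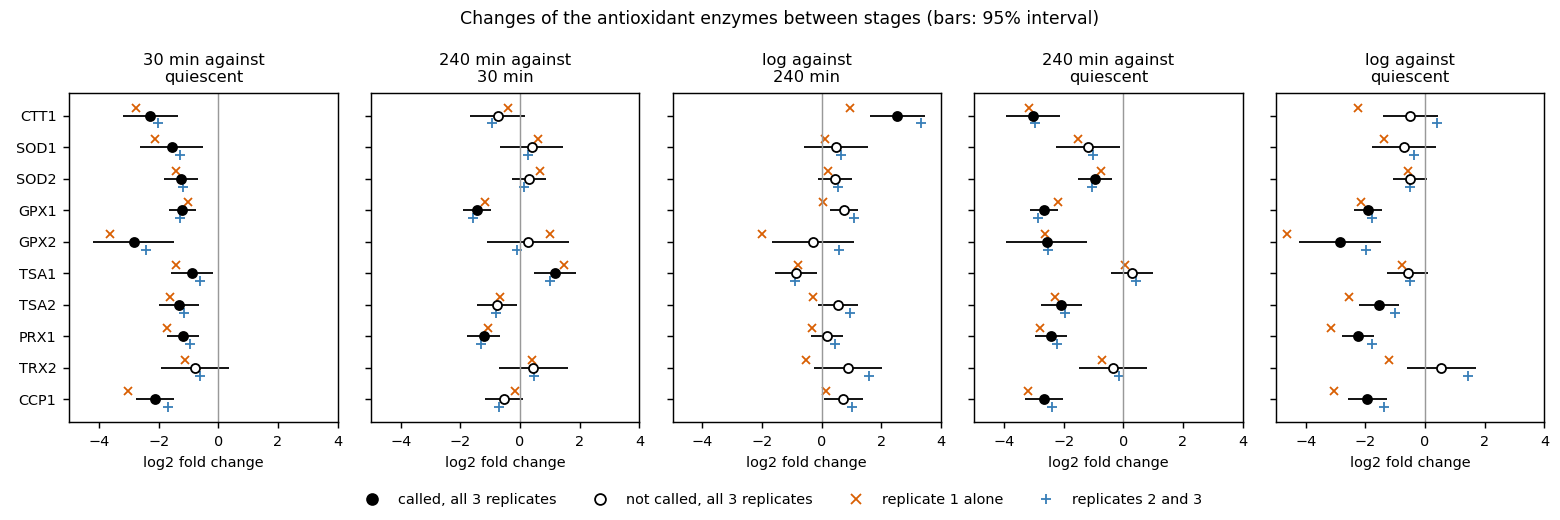
Log2 change of each antioxidant enzyme in the comparisons between stages, with 95% intervals. Filled points passed an adjusted p of 0.05 with all 3 replicates, open points did not, crosses give replicate 1 alone and plus signs replicates 2 and 3. For 30 min against quiescent cells all 10 points lie below 0, and in log phase against 240 min replicate 1 lies far below the others for CTT1, GPX2 and TRX2.

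CTT1 (YGR088W, chrVII:654634-656322, plus strand) codes for catalase T, the catalase of the cytosol. CTT1 had 3145, 1503 and 1747 normalised counts in replicates 1, 2 and 3 of quiescent cells, 459, 405 and 389 at 30 min, 348, 209 and 208 at 240 min, and 665, 2052 and 2186 in log phase. The 30 min and 240 min libraries lay below all others, and the log-phase libraries divided. CTT1 fell at 30 min against quiescent cells by 2.28 ± 0.42 on the log2 scale (adjusted p = 0.0011). At 240 min it was not called against 30 min (-0.75, adjusted p = 0.215; 0.0467 without log-phase replicate 1, which changes only the pooled spread) and was at -3.02 ± 0.42 against quiescent cells (adjusted p = 7.21e-05). In log phase CTT1 rose against 240 min by 2.54 ± 0.42 (adjusted p = 0.00712), that is 5.80-fold. That rise was 3.09 without log-phase replicate 1 (adjusted p = 5.43e-05) and missed the threshold in a fit of only those 2 groups (adjusted p = 0.104). Against quiescent cells it was not called in log phase (-0.49, 95% interval -1.40 to 0.43), and without log-phase replicate 1 the change was 0.07 (adjusted p = 0.861).

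The other catalase gene, CTA1, codes for the catalase of peroxisomes and mitochondria. CTA1 fell at each step, by 2.74 ± 0.25 at 30 min against quiescent cells, 2.23 ± 0.25 at 240 min against 30 min and 1.29 ± 0.25 in log phase against 240 min (adjusted p = 1.79e-05, 8.95e-05 and 0.0129). The call in log phase was lost without 240 min replicate 2 or 3 (adjusted p = 0.077 and 0.0879). Within each library the log2 ratio of CTT1 to CTA1, both per kilobase of coding sequence, was -3.39, -3.98 and -3.95 in quiescent cells, -2.82, -3.60 and -3.53 at 30 min, -0.98, -2.26 and -2.27 at 240 min, and 1.24, 2.39 and 2.36 in log phase. CTA1 was thus the higher of the pair in all quiescent and exit libraries, and CTT1 in all log-phase libraries, replicate 1 included.

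SOD1 (YJR104C, chrX:622550-623014, minus strand) codes for the copper-zinc superoxide dismutase of the cytosol. It had 26061, 7809 and 8002 normalised counts in quiescent cells, 5976, 3574 and 2926 at 30 min, 9127, 4008 and 3841 at 240 min, and 9959, 6370 and 5944 in log phase. Replicate 1 was the highest library at every stage. SOD1 fell at 30 min against quiescent cells by 1.57 ± 0.49 (adjusted p = 0.0209), but by 0.99 without quiescent replicate 1 (adjusted p = 0.0844). The call was also lost without 30 min replicate 2 or 3 (adjusted p = 0.0616 and 0.0801). With the replicate block SOD1 was called against quiescent cells at 240 min (-1.18, adjusted p = 0.0551 without the block and 0.00075 with it). In log phase it was likewise called with the block (-0.70, adjusted p = 0.238 without it and 0.0159 with it). Without log-phase replicate 1 the log-phase change of SOD1 was -0.94 against quiescent cells and 0.24 against 240 min, neither called (adjusted p = 0.141 and 0.750), and with it the change against 240 min was 0.47 (adjusted p = 0.576). At 240 min against quiescent cells the call was made without quiescent replicate 2 or 3 as well (adjusted p = 0.0378 and 0.0414). It was also made without 240 min replicate 1 or log-phase replicate 1 (adjusted p = 0.0200 and 0.0429). Without quiescent replicate 1, SOD1 against quiescent cells was -0.60 at 240 min and -0.13 in log phase. Neither was called (adjusted p = 0.249 and 0.814).

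SOD2 (YHR008C, chrVIII:122889-123590, minus strand), the manganese superoxide dismutase of the mitochondrial matrix, had 3173, 2203 and 2162 normalised counts in quiescent cells, 1172, 937 and 999.9 at 30 min, 1872, 1087 and 1038 at 240 min, and 2147, 1662 and 1455 in log phase. Quiescent libraries lay above all 30 min and 240 min libraries. SOD2 fell by 1.26 ± 0.26 at 30 min (adjusted p = 0.0022) and was -0.95 ± 0.26 at 240 min (adjusted p = 0.00777), each against quiescent cells. In log phase it was -0.51 ± 0.26 against quiescent cells (adjusted p = 0.111). This difference was called with the replicate block (adjusted p = 0.0124) and without log-phase replicate 1 (-0.67, adjusted p = 0.0444). Without quiescent replicate 1 SOD2 was at -0.33, not called (adjusted p = 0.329). Against 240 min it was 0.43 in log phase (adjusted p = 0.323), and 0.28 without replicate 1 (adjusted p = 0.443). The log2 ratio of SOD2 to SOD1 per kilobase ran from -2.95 to -2.14 in the libraries of 30 min, 240 min and log phase, and was -3.63, -2.42 and -2.48 in quiescent replicates 1, 2 and 3. Outside quiescent replicate 1 the pair thus kept a ratio within about 1 log2 unit.

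GPX1 and GPX2 belong to the glutathione peroxidase-like family, which in yeast reduces lipid and other hydroperoxides. GPX1 (YKL026C, chrXI:389380-389883, minus strand) had 1702, 2151 and 2070 normalised counts in quiescent cells, 846, 874 and 839 at 30 min, 373, 281 and 292 at 240 min, and 384, 627 and 598 in log phase. The quiescent, 30 min and 240 min libraries formed separate levels with no overlap. GPX1 fell at both steps of the exit, by 1.20 ± 0.22 at 30 min against quiescent cells (adjusted p = 0.000901) and by 1.44 ± 0.22 at 240 min against 30 min (adjusted p = 0.000503). In log phase it was 0.74 ± 0.22 above 240 min, not called (adjusted p = 0.0571). That difference was called with the replicate block (adjusted p = 0.0333), without 240 min replicate 1 (0.87, adjusted p = 0.0417) and without log-phase replicate 1 (0.97, adjusted p = 0.0017). Against quiescent cells GPX1 was -2.65 ± 0.22 at 240 min (adjusted p = 1.63e-06). In log phase it was -1.90 ± 0.22 against quiescent cells (adjusted p = 1.5e-05), and -1.68 without log-phase replicate 1 (adjusted p = 8.97e-06).

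GPX2 (YBR244W, chrII:707528-708016, plus strand), which holds both a stress response element and 2 Yap1 elements in its promoter, had 5746, 6466 and 6728 normalised counts in quiescent cells, 459, 1272 and 1171 at 30 min, 927, 1178 and 1099 at 240 min, and 233, 1547 and 1827 in log phase. Every quiescent library was above every other library, and replicate 1 was the lowest of each later group. GPX2 fell at 30 min against quiescent cells by 2.84 ± 0.63 (adjusted p = 0.00321), the largest fall of the 10 members in that comparison and 7.14-fold. The change ranged from -3.10 to -2.37 over all single libraries left out. With replicates 2 and 3 only it was -2.43, beside -2.03 for CTT1. Against quiescent cells GPX2 was also lower at 240 min (-2.57 ± 0.63, adjusted p = 0.00374) and in log phase (-2.85 ± 0.63, adjusted p = 0.00197). The log-phase value rested in part on replicate 1: it was -1.91 without that library (adjusted p = 0.000555), still called, and ranged from -3.39 to -1.91 over all single libraries left out. GPX2 was not called at 240 min against 30 min, nor in log phase against 240 min (-0.29, adjusted p = 0.805; 0.66 without log-phase replicate 1, adjusted p = 0.163). The third family member, HYR1 (also known as GPX3), the peroxide sensor that activates Yap1, fell by 1.47 at 30 min against quiescent cells (adjusted p = 0.0102).

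The balance within the pair differed between stages and between replicates. The log2 ratio of GPX2 to GPX1 per kilobase was 1.80, 1.63 and 1.74 in quiescent cells, -0.84, 0.59 and 0.52 at 30 min, 1.36, 2.11 and 1.96 at 240 min, and -0.68, 1.35 and 1.66 in log phase. All 30 min ratios lay below all quiescent and all 240 min ratios, while the log-phase ratios overlapped those of every other stage. GPX2 was the higher of the pair in all but 2 of the 12 libraries, both of them replicate 1. The coding sequences of GPX2 and GPX1 are 58.4% identical and those of GPX2 and HYR1 69.9%, with no shared run over 23 bases, against reads of 75 bases.

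TSA1 and TSA2 code for peroxiredoxins of the cytosol, of which Tsa1 is the main one and also a chaperone. TSA1 (YML028W, chrXIII:220138-220728, plus strand) had 13822, 7196 and 7104 normalised counts in quiescent cells, 5166, 5378 and 4078 at 30 min, 14217, 9813 and 9193 at 240 min, and 8150, 5765 and 4483 in log phase. The 240 min libraries were all above the 30 min and log-phase libraries. TSA1 fell at 30 min against quiescent cells by 0.88 ± 0.32 (adjusted p = 0.0413), the weakest of the 9 calls. The value was -0.56 without quiescent replicate 1 (adjusted p = 0.159). The call was also lost without 30 min replicate 1, 2 or 3 (adjusted p = 0.0698, 0.0676 and 0.136), without 240 min replicate 2 or 3 (0.0563 and 0.0546) and without log-phase replicate 2 (0.0508), as well as under total-count scaling.

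TSA1 was the one member to rise at 240 min against 30 min, by 1.17 ± 0.32 (adjusted p = 0.0184), and higher in replicates 1, 2 and 3 alike. Without 30 min replicate 3 or 240 min replicate 1 the call was lost (adjusted p = 0.0755 and 0.0674). The log-phase level of TSA1 was -0.87 ± 0.32 against 240 min, not called (adjusted p = 0.117), but called with the replicate block (adjusted p = 0.0188) and without log-phase replicate 1 (-1.10, adjusted p = 0.0172). Against quiescent cells it was 0.29 at 240 min (95% interval -0.41 to 0.98) and -0.58 in log phase (adjusted p = 0.140). The log-phase value was called with the block (adjusted p = 0.0238) and without log-phase replicate 1 (-0.81, adjusted p = 0.0388). Without quiescent replicate 1 it was -0.27, not called (adjusted p = 0.483).

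TSA2 (YDR453C, chrIV:1365072-1365662, minus strand) had 1318, 674 and 657 normalised counts in quiescent cells, 425, 308 and 290 at 30 min, 269, 160 and 178 at 240 min, and 222, 365 and 293 in log phase. It fell at 30 min against quiescent cells by 1.31 ± 0.31 (adjusted p = 0.00495) and was -2.08 ± 0.31 at 240 min and -1.54 ± 0.31 in log phase against quiescent cells (adjusted p = 0.000127 and 0.00116). Without log-phase replicate 1 the log-phase value was -1.35 (adjusted p = 0.0034). Log phase against 240 min was not called, at 0.54 (adjusted p = 0.305) and at 0.72 without log-phase replicate 1 (adjusted p = 0.104). At 240 min TSA2 was -0.77 ± 0.31 against 30 min (adjusted p = 0.0899), called with the replicate block (adjusted p = 0.0499) and without quiescent replicate 1 (adjusted p = 0.0443). The changes of TSA2 and TSA1 at 240 min against 30 min thus had opposite signs, of which that of TSA1 was called. The log2 ratio of TSA2 to TSA1 per kilobase was -3.39, -3.42 and -3.43 in quiescent cells, -3.60, -4.13 and -3.81 at 30 min, -5.73, -5.94 and -5.69 at 240 min, and -5.20, -3.98 and -3.94 in log phase. TSA2 was lowest relative to its paralog in the 240 min libraries, which overlapped no other stage, and log-phase replicate 1 was the nearest to them. The 2 coding sequences are 78.5% identical with no shared run over 14 bases, and no 75-base stretch of either was found elsewhere in the genome.

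**Figure D4:**
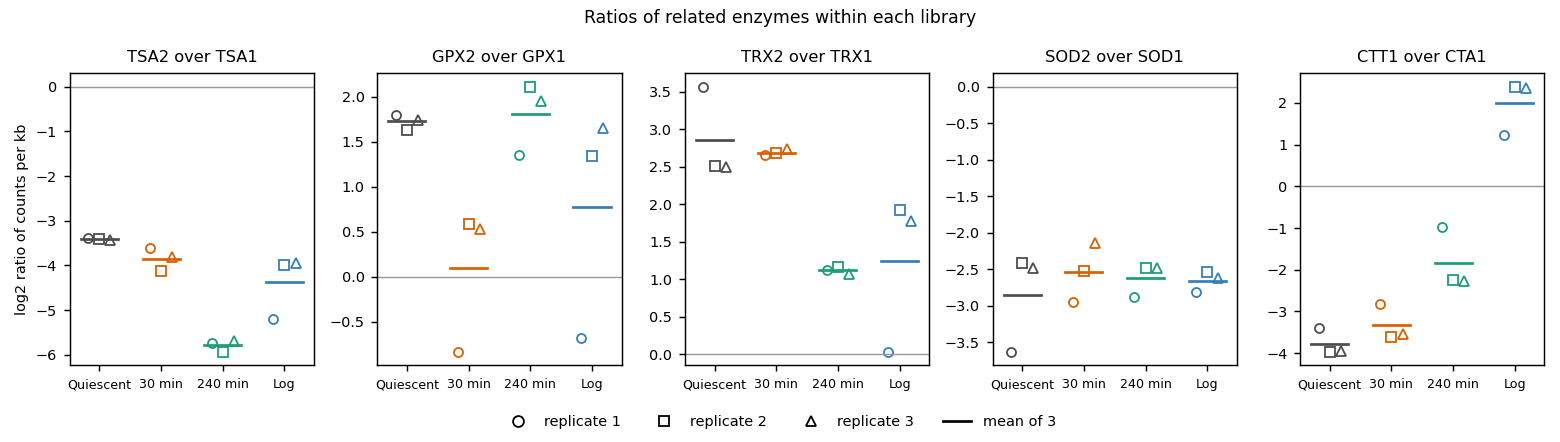
Log2 ratio of related enzymes within each library, from counts per kilobase of coding sequence, at the 4 stages. Symbols are replicates, the line is the mean of 3 and 0 marks equal levels. The ratio of TSA2 to TSA1 lies at -5.94 to -5.69 in the 240 min libraries, and the ratio of CTT1 to CTA1 crosses 0 in log phase.

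PRX1 (YBL064C, chrII:100371-101156, minus strand) codes for the peroxiredoxin of mitochondria. PRX1 had 9415, 5895 and 6578 normalised counts in quiescent cells, 2864, 3511 and 3006 at 30 min, 1352, 1381 and 1269 at 240 min, and 1070.2, 1924 and 1691 in log phase. Like GPX1 it stepped down without overlap at 30 min and again at 240 min. It fell by 1.20 ± 0.25 at 30 min against quiescent cells (adjusted p = 0.0022) and by 1.22 ± 0.25 at 240 min against 30 min (adjusted p = 0.00359). Against quiescent cells it was -2.42 ± 0.25 at 240 min and -2.24 ± 0.25 in log phase (adjusted p = 7.47e-06 and 1.3e-05), the log-phase value being -1.99 without replicate 1 (adjusted p = 8.74e-06). Log phase against 240 min was not called, at 0.19 (adjusted p = 0.674) and at 0.44 without log-phase replicate 1 (adjusted p = 0.126). Among other peroxiredoxins, AHP1 of the cytosol was called only at 240 min against 30 min, where it rose by 1.08 ± 0.32 (adjusted p = 0.0248), and the nuclear DOT5 was called in none of the 5 comparisons by limma.

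CCP1 (YKR066C, chrXI:566113-567198, minus strand) codes for cytochrome c peroxidase, which sits between the mitochondrial membranes and reduces peroxide with electrons from cytochrome c. CCP1 had 16270 normalised counts in quiescent replicate 1, 6934 and 7819 in quiescent replicates 2 and 3, 1990, 2386 and 2238 at 30 min, 1766, 1383 and 1426 at 240 min, and 1956, 3040 and 2627 in log phase. Quiescent libraries stood above all others by a factor of over 2. CCP1 fell at 30 min against quiescent cells by 2.12 ± 0.30 (adjusted p = 0.000203), that is 4.36-fold, and by 1.74 without quiescent replicate 1 (adjusted p = 0.000355). It was -2.66 ± 0.30 at 240 min and -1.94 ± 0.30 in log phase against quiescent cells (adjusted p = 1.44e-05 and 0.000161), the log-phase value being -1.76 without replicate 1 (adjusted p = 0.000365). At 240 min against 30 min CCP1 was at -0.54, not called (adjusted p = 0.213). The 0.72 difference of log phase against 240 min was not called (adjusted p = 0.157). Without log-phase replicate 1 that difference was 0.90 (adjusted p = 0.0391).

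TRX2 (YGR209C, chrVII:912913-913227, minus strand) codes for a thioredoxin of the cytosol, an electron donor of Tsa1, and its promoter holds the 2 Yap1 elements printed above. TRX2 had 6939, 6609 and 6199 normalised counts in quiescent cells, 3228, 4091 and 4214 at 30 min, 4266, 6095 and 5399 at 240 min, and 2970, 18593 and 16185 in log phase. The 30 min libraries lay below the quiescent ones without overlap, and log-phase replicates 2 and 3 were above every other library while replicate 1 was the lowest of all. TRX2 was the one member not called at 30 min against quiescent cells (-0.78 ± 0.53, 95% interval -1.93 to 0.36, adjusted p = 0.244). Without log-phase replicate 1, which enters that comparison only through the pooled spread, the same -0.78 had an adjusted p of 0.00374. Log phase was 0.89 ± 0.53 above 240 min (adjusted p = 0.315) and 1.74 ± 0.21 above it without replicate 1 (adjusted p = 0.000144). Against quiescent cells the log-phase value was 0.55 (adjusted p = 0.391), and 1.40 without replicate 1 (adjusted p = 0.000116).

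The other cytosolic thioredoxin gene, TRX1, was called where TRX2 was not. It rose by 2.01 ± 0.29 at 240 min against 30 min (adjusted p = 0.00039) and by 2.17 ± 0.29 in log phase against quiescent cells (adjusted p = 5.08e-05). The log2 ratio of TRX2 to TRX1 per kilobase was 3.57, 2.52 and 2.49 in quiescent cells, 2.65, 2.68 and 2.74 at 30 min, 1.12, 1.17 and 1.07 at 240 min, and 0.03, 1.93 and 1.77 in log phase. TRX2 was the higher of the pair in all 12 libraries, by the least in log-phase replicate 1, and the 240 min ratios lay below those of every quiescent and 30 min library. The mitochondrial thioredoxin gene TRX3 was called by limma in none of the 5 comparisons.

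**Figure D5:**
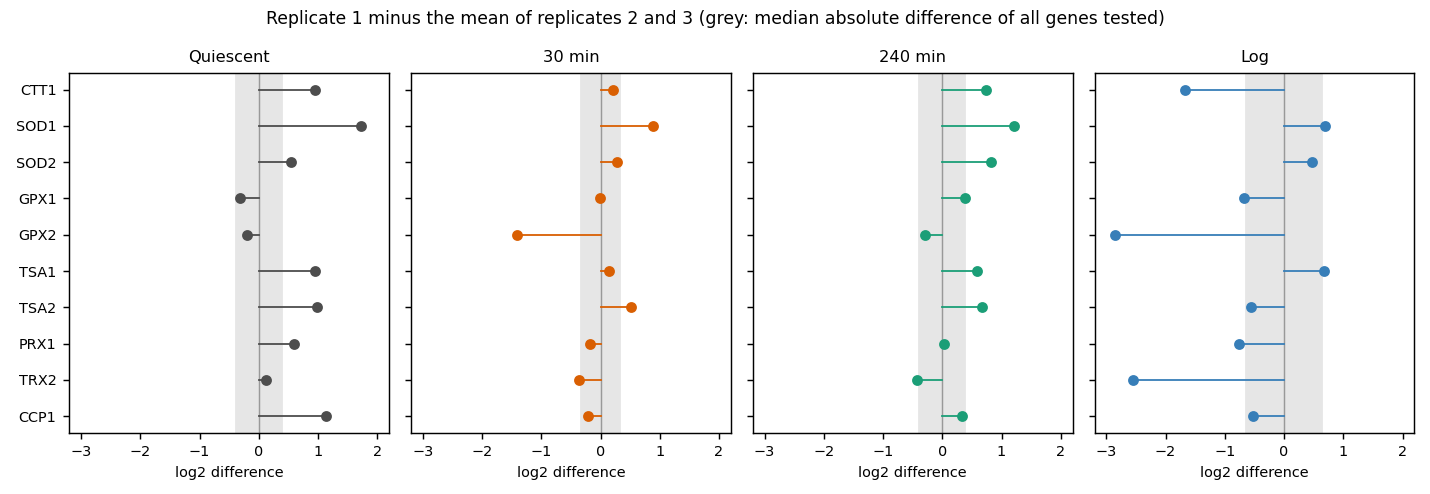
Replicate 1 minus the mean of replicates 2 and 3 (x axis, log2) for each antioxidant enzyme at the 4 stages, with the median absolute difference of all genes tested as a grey band. SOD1 reaches 1.72 and CCP1 1.14 in quiescent cells, and GPX2 reaches -2.85, TRX2 -2.55 and CTT1 -1.67 in log phase.

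The members differed from their own replicates more in some genes than in others. In quiescent cells replicate 1 exceeded the mean of replicates 2 and 3 by 1.72 for SOD1, 1.14 for CCP1, 0.99 for TSA2, 0.96 for CTT1 and 0.95 for TSA1 on the log2 scale, beside the median of 0.39 over all genes. At 30 min it was -1.41 for GPX2, and at 240 min 1.22 for SOD1. In log phase it was -2.85 for GPX2, -2.55 for TRX2 and -1.67 for CTT1, beside the median of 0.64. The log-phase libraries that were high for these 3 genes were also those with the higher levels of 5 of the 6 quiescence markers, SNZ1 being the exception.

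Levels between genes were compared per kilobase of coding sequence. SOD1, TRX2 and TSA1 were the 3 highest members at each stage. In quiescent cells SOD1 averaged 30015 ± 22543 normalised counts per kilobase, TRX2 20896 ± 1177, TSA1 15862 ± 6518, GPX2 12911 ± 1040, CCP1 9522 ± 4745, PRX1 9282 ± 2375, GPX1 3917 ± 475, SOD2 3579 ± 815, TSA2 1494 ± 638 and CTT1 1262 ± 525 (SD, n = 3 each). In that order the ranges of neighbours overlapped except between PRX1 and GPX1 and between SOD2 and TSA2. At 30 min TRX2 led with 12204 ± 1705 (SD, n = 3), and at 240 min TSA1 led with 18738 ± 4634, in both cases overlapping the next member. In log phase TRX2 averaged 39945 ± 26704, and ranged from 9428 in replicate 1 to 59027. CTT1 was the lowest member in quiescent cells, at 30 min and at 240 min, and TSA2 in log phase (496 ± 121).

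The 10 members together took 0.767% ± 0.246 of all reads of quiescent cells, 0.329% ± 0.019 of 30 min cells, 0.311% ± 0.077 of 240 min cells and 0.322% ± 0.043 of log-phase cells (SD, n = 3 each). Every quiescent library, at 0.623% or above, exceeded every other library, the highest of which was at 0.399%. Within the summed level per kilobase, TSA1 made up 13.7% to 15.4% of quiescent libraries, 17.8% to 21.2% of 30 min libraries, 31.6% to 36.2% of 240 min libraries and 8.91% to 26.1% of log-phase libraries. GPX2 made up 7.72% to 15.7%, 2.2% to 6.19%, 2.85% to 4.62% and 0.900% to 4.39% at the same stages. TRX2 made up 17.8% in log-phase replicate 1 and up to 61.3% in the other log-phase libraries. At 240 min TSA1 held a larger share, and GPX2 a smaller one, than in any quiescent library.

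The wider redox system was described with 4 lists: 31 other antioxidant enzymes, 13 genes of metal and heme supply, 12 of NADPH supply and 15 regulators. At 30 min against quiescent cells, 20.6% of all genes tested rose and 23.7% fell. Of the 31 other antioxidant enzymes 13 fell and 18 were not called (median -0.47, against -0.07 over all genes). The largest falls were in CTA1, in MXR2, a mitochondrial methionine sulfoxide reductase (-1.95, adjusted p = 0.0209), in the glutathione transferase gene GTT1 (-1.90, adjusted p = 0.000777) and in OXR1, needed for resistance to oxidative damage (-1.90, adjusted p = 0.000191). The MXR2 call was lost on leaving out single libraries (adjusted p up to 0.0747). Of the NADPH genes 6 of 12 fell, among them ZWF1, which codes for glucose-6-phosphate dehydrogenase, at -2.02 ± 0.30 (adjusted p = 0.000298). SOL4, GND2 and IDP3, also of NADPH supply, were at -2.2, -2.08 and -1.78 (adjusted p = 0.00307, 0.00119 and 0.00504). Under total-count scaling the splits were 3 that rose and 12 that fell for the other antioxidants, 3 and 5 for the NADPH genes, and 5 and 1 for the regulators, of which 1 rose and 1 fell on the deposited scaling. Of all genes tested 1669 rose and 976 fell under total-count scaling.

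Of the 13 metal and heme genes, 2 rose and 3 fell at 30 min against quiescent cells, beside 20.6% and 23.7% of all genes. HEM3, an early enzyme of heme synthesis, rose by 2.11 ± 0.23 (adjusted p = 4.6e-05). HEM15, for the enzyme that inserts iron into the precursor of heme, the cofactor of catalase and of Ccp1, fell by 1.36 ± 0.35 (adjusted p = 0.00772). MTM1, needed to load manganese into Sod2, fell by 1.02 ± 0.23 (adjusted p = 0.00341), beside the fall of SOD2 itself.

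At 240 min against 30 min, 13.3% of all genes tested rose and 14.0% fell (5.59% and 33.0% under total-count scaling). The other antioxidants divided, with 7 that rose and 9 that fell of 31 (2 and 13 under total-count scaling). TRX1, AHP1 and TRR1, which codes for thioredoxin reductase (1.27 ± 0.26, adjusted p = 0.00388), were among those that rose. Under total-count scaling AHP1 was at 0.63, not called (adjusted p = 0.111). Genes of the thioredoxin cycle did not move alike. Among the members TSA1 rose and PRX1 fell by 1.22 (adjusted p = 0.00359). TSA2 and TRX2, at -0.77 and 0.44, were not called (adjusted p = 0.0899 and 0.579), nor were TRX3 and DOT5. CYC1, the main cytochrome c gene, was at 1.16 (adjusted p = 0.0258) and CYC7, the other cytochrome c gene, at -1.85 (adjusted p = 0.0338). GTO3 and GTO1, glutathione transferases of the omega class, fell by 1.78 and 1.48 (adjusted p = 0.000529 and 0.00026). Paralogs of NADPH supply moved in opposite directions: GND1 rose by 2.81 ± 0.32 and GND2, for the same enzyme step, fell by 1.20 ± 0.39 (adjusted p = 0.000112 and 0.0397). SOL3, of the same pathway, rose by 1.63 (adjusted p = 0.000187), and IDP2, IDP3 and ZWF1 were at -2.22, -1.25 and -1.24 (adjusted p = 0.000697, 0.0467 and 0.0104). HEM15 rose by 1.55 ± 0.35 (adjusted p = 0.00687), 1 of 2 metal and heme genes that rose with none that fell (1 and 3 under total-count scaling). Of the 15 regulators 1 rose (5 fell and none rose under total-count scaling). The calls of AHP1, CYC1, CYC7, IDP3 and GND2 were each lost without 30 min replicate 2 or 3, among other libraries, with adjusted p up to 0.138.

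In log phase against 240 min, 3.27% of all genes tested rose and 4.09% fell (1.91% and 11.8% under total-count scaling). Of the 31 other antioxidants 2 rose and 1 fell (2 and 2 under total-count scaling). Of the 12 NADPH genes 1 rose and 1 fell (1 and 3), of the 15 regulators 2 rose and 1 fell (1 and 2), and of the 13 metal and heme genes 1 fell. CYC7 rose by 2.58 ± 0.58 (adjusted p = 0.0247) and GRX1, a glutaredoxin, by 1.47 ± 0.37 (adjusted p = 0.0365). CYC7 had 291, 2188 and 2285 normalised counts in log-phase replicates 1, 2 and 3, with replicate 1 the lowest as for CTT1, and its rise was 3.56 without replicate 1, still called. MSN4, one of the stress factors, rose by 2.34 ± 0.47 (adjusted p = 0.0161). MSN4 had 2034, 1738 and 2280 normalised counts in log phase, against 962, 232 and 277 at 240 min, where replicate 1 was the highest. Without 240 min replicate 1 its rise was 2.98, still called. HAP2, of the CCAAT-binding complex, was at 1.05 and SOL4 at 1.83 (adjusted p = 0.0464 and 0.0424). HEM1, of heme synthesis, was at -1.19 and ZWF1 at -1.28 (adjusted p = 0.0358 and 0.0298). In replicates 1, 2 and 3 SOL4 had 361, 1266 and 835 normalised counts in log phase, against 358, 156 and 151 at 240 min. GRX1 had 3577, 12910 and 7718, against 2039, 3048 and 2720. Log-phase replicate 1 was thus the lowest of its group for both. Without 240 min replicate 2 or 3, among others, the calls of all 8 genes named by this comparison, CTA1 included, were lost, with adjusted p of 0.077 to 0.188.

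Against quiescent cells, 29.1% of all genes tested rose and 29.5% fell at 240 min, and 28.8% rose and 27.8% fell in log phase. List counts near these shares do not set a list apart. Of the 31 other antioxidants 15 fell at 240 min and 15 in log phase, and 5 and 7 rose. CTA1 was lowest, at -4.97 and -6.26 (adjusted p = 9.09e-08 and 7.04e-09), and GTO3 followed at -3.48 and -3.70 (adjusted p = 1.16e-06 and 5.03e-07). GTT1 was at -3.08 and -2.69 and GTO1 at -2.73 and -3.11 (adjusted p = 1.1e-05, 2.9e-05, 7.59e-07 and 1.89e-07). Among those that rose, TRX1 was at 1.40 at 240 min, CYC1 at 1.11 and 1.46, and the glutaredoxin gene GRX7 at 1.5 and CYC7 at 1.75 in log phase (adjusted p = 0.00123, 0.0152, 0.00316, 0.000179 and 0.0217). The CYC1 call at 240 min was lost without 240 min replicate 1 (adjusted p = 0.0694), and that of CYC7 without quiescent replicate 1 or log-phase replicate 2 or 3 (adjusted p = 0.0549, 0.0941 and 0.0993). CYC7 was at 2.73 without log-phase replicate 1, still called. Of the 12 NADPH genes 3 rose and 6 fell at 240 min and 4 rose and 5 fell in log phase, with ZWF1 at -3.26 and -4.55 and GND1 at 3.36 and 3.32 (adjusted p = 3.88e-06, 2.49e-07, 4.82e-06 and 4.71e-06). IDP2 was at -3.86 and -5.07, GND2 at -3.28 and -3.30, and ALD6, an NADPH-forming aldehyde dehydrogenase of the cytosol, at 1.59 and 1.61 (adjusted p from 3.13e-07 to 0.00514). SOL4 was at -3.24 and SOL3 at 1.17 at 240 min, and IDP3 at -1.86 in log phase (adjusted p = 0.000115, 0.000404 and 0.0026). IDP3 was at -1.25 without log-phase replicate 1, still called. Of the 13 metal and heme genes 2 rose and 1 fell at 240 min (2 and 2 under total-count scaling), with the heme synthesis genes HEM13 at 2.16 and HEM3 at 1.87 and MTM1 at -1.07 (adjusted p = 0.00168, 2.83e-05 and 0.00154). In the log-phase libraries HEM13 was at 2.04, HEM3 at 1.66, HEM15 at 1.11 and HEM1, for the first step of heme synthesis, at -1.86 (adjusted p = 0.00257, 7.18e-05, 0.017 and 0.000215), and the HEM15 call was lost without quiescent replicate 1 (adjusted p = 0.0675). HEM13 was at 1.42 without log-phase replicate 1, still called. Among the 15 regulators 3 rose and 3 fell at 240 min, and 6 rose and 3 fell in log phase. In log phase MSN4 was at 2.63 and HAP4, the activating subunit of the CCAAT-binding complex, at 2.07 (adjusted p = 0.000441 and 0.00102), while YAP1 was at -1.52 and HSF1, the heat shock factor, at -1.40 (adjusted p = 0.000254 and 0.000239). SKN7, a partner of Yap1 in the peroxide response, was at 1.16 at 240 min and 1.34 in log phase, YBP1, a Yap1-binding protein gene, at 1.13 in log phase, and CAD1, a relative of YAP1, at -1.34 and -1.08 (adjusted p = 0.00109, 0.000394, 0.00038, 0.00295 and 0.0112). The log-phase call of CAD1 was lost without quiescent replicate 1 (adjusted p = 0.0518). Under total-count scaling the log-phase splits were 4 that rose and 15 that fell among the other antioxidants, 2 and 6 among the NADPH genes, and 4 and 4 among the regulators. They were 2 and 3 among metal and heme genes, of which 4 rose and 2 fell on the deposited scaling. Of all genes tested 978 rose and 2381 fell in log phase under total-count scaling.

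Over the 12 libraries the members' log2 values correlated with each other at a median Pearson r of 0.604 over the 45 pairs, with a range of -0.175 to 0.955. The highest was CCP1 with TSA2, and the 4 pairs below 0 all held TSA1. The libraries share their stages and depth, so this describes only how alike the profiles are. Among all genes tested, the profiles most like CTT1 were NNR2 (0.983), COR1 (0.975) and CIN10 (0.973). For PRX1 they were HVG1 (0.993), ATG34 and MHP1, for CCP1 COQ4 (0.991), RFS1 and GUD1, for TSA2 RGM1 (0.986), YDL199C and IMO32, and for TRX2 PHB1 (0.974), YHR131C and REG1. For GPX1 they were YGR174W-A (0.983), YOL164W-A and DSF1, for GPX2 DFG5 (0.977), BLM10 and VMR1, for SOD1 UBX5 (0.953), THP1 and PHO85, and for SOD2 EMC3 (0.967), YPF1 and TPK2. TSA1 had the least close match, with SPT16 at 0.887, followed by TIM44 and PFS2.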

How the data were processed

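The deposited table holds a signal per gene and library, a normalised read count. The submitters' processing notes name the sacCer3 build, bedtools, DESeq and DESeq2 without versions, HTSeq 0.6.1 and STAR 2.5.2a, and give them no roles. The strand setting of the counting is not stated there or in the labels. No member overlaps another gene. Per the labels' protocols, poly(A) RNA was made into NEBNext Ultra II libraries and sequenced from 1 end (75 bp). Every value was a whole multiple of the value of 1 read in its library (100% within a tolerance of 1e-06), so whole reads were recovered for edgeR 4.0.16 and DESeq2 1.42.0 as alternatives. Of the 6120 genes, 124 were at 0 throughout and 6113 were matched by name to the R64 annotation.

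The main test was limma 3.58.1 with a trend (R 4.3.3) on log2(value + 1), which understates changes of low genes, on the 5871 genes whose mean reached 10. All 4 groups entered 1 fit, tests were two-sided and p-values were adjusted per comparison. The test was also run on simulated counts drawn independently for each library. These held no shared shift of replicate 1, so that run does not show how the test behaves under it. No replicate pair was alike within sampling noise (lowest chi-square per degree of freedom 3.75). What a replicate number marks is not stated in the labels that give it. Departures from group means correlated for all 18 same-number pairs (0.134 to 0.582), but replicates 2 and 3 of different groups also correlated (0.210 to 0.553). Same-number pairs of replicate 2 lay at 0.134 to 0.394 and those of replicate 3 at 0.320 to 0.582. Replicate 1 correlated negatively with replicates 2 and 3 of other groups (-0.604 to -0.197). Departures within a group cancel out for each gene, so these negative values follow by arithmetic from the positive same-number values of replicate 1. The positive values between replicates 2 and 3 of different groups set replicate 1 apart. They do not show that replicates 2 and 3 were paired by number. Calls with the replicate block are therefore given beside the main calls and not read as a paired test.

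All members were named with their counts in each library, but not every change of theirs between stages is printed. Genes of the other lists were named where called with at least a 2-fold change, at most 4 each way per list, the largest first. CTA1, HYR1, TRX1, TRX3, DOT5 and AHP1 were always named, as were the 3 genes most correlated with each member. The members and lists were chosen with earlier results of these data known. Sequences were read from the R64 reference. Alternatives were another pseudocount, no filter, total-count and TMM scaling, edgeR, DESeq2, a fit of only the groups compared, the replicate block, array weights by group, replicates 2 and 3 alone, and leaving out each library.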

Additional observations from a re-analysis of the deposited data

How the results depend on the processing

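The numbers of members called at 30 min and at 240 min against quiescent cells stayed within 1.5 times of 9 and 7 under every alternative, at 7 to 10 and 7 to 8 when single libraries were left out. At 240 min against 30 min there were 3 members, where 13.3% of all genes rose and 14.0% fell. With total-count scaling there were 5, where 5.59% of all genes rose and 33.0% fell. There were 6 with only the 2 groups compared, 7 with replicates 2 and 3 only, and 2 to 4 when single libraries were left out. In log phase against 240 min there was 1 member, where 3.27% of all genes rose and 4.09% fell. With total-count scaling there were 2, where 1.91% of all genes rose and 11.8% fell. There were 3 with the replicate block and 10 with replicates 2 and 3 only, beside 18.2% and 62.6% of all genes. There were 2 with edgeR, 3 with DESeq2, 0 with only the 2 groups compared, and 1 to 5 when single libraries were left out. The highest of these was without log-phase replicate 1, beside 35.4% of all genes, and 2 were called without 240 min replicate 1. In log phase against quiescent cells there were 5 members, where 28.8% of all genes rose and 27.8% fell. There were 8 with the replicate block and 10 with replicates 2 and 3 only, beside 66.8% and 77.9% of all genes. When single libraries were left out there were 5 to 8. Counts given here without a share of all genes are not read as results about the members. The replicate block changed no other call of a member than those given with the members. Changes of sign were all in changes that the main test did not call. Both GPX2 in log phase against 240 min and CTT1 in log phase against quiescent cells passed the threshold with the opposite sign with replicates 2 and 3 only (adjusted p = 0.00143 and 0.00724). At 240 min against 30 min SOD1 was -0.061 with total-count scaling and -0.016 to 0.68 without single libraries, SOD2 was -0.14 and TRX2 -0.0055 with total-count scaling, and GPX2 was -0.18 with total-count scaling, -0.10 with replicates 2 and 3 only and -0.20 to 0.54 without single libraries. In log phase against 240 min GPX2 was 0.20 with edgeR, 0.17 with DESeq2, 0.56 with replicates 2 and 3 only and -0.82 to 0.66 without single libraries, and PRX1 was -0.087 with total-count scaling. In log phase against quiescent cells CTT1 was 0.39 with replicates 2 and 3 only, and -0.79 to 0.067 without single libraries. The cause of these shifts was not tested. The low depth of quiescent replicate 1 limits low values there most.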
